A study of Drosophila melanogaster with 30 samples.

Results

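The own food of F2 male flies whose grandparents developed on poor food was examined by comparing 3 arrays of males raised on poor food with 3 arrays of males raised on rich food, chosen by their group labels and making up 6 of the 30 arrays of the study. Both groups shared the same ancestry of poor-raised F0 grandparents and rich-raised F1 parents, and they differed only in the food on which the F2 males themselves developed (groups F0-Poor_F1-Rich_F2-Poor and F0-Poor_F1-Rich_F2-Rich, called poor-raised and rich-raised males below). The study measured total RNA of adult virgin Drosophila melanogaster males, from a laboratory stock founded in the field and frozen without further treatment, in 10 diet histories with 3 arrays each. The other 8 groups make 4 further pairs that differ only in own food: F0 males, F1 males of rich-raised parents, F1 males of poor-raised parents, and F2 males of rich-raised grandparents and rich-raised parents. The sources used here do not give the recipes of the foods, the flies per sample, their ages, the time of day of freezing or any batches of arrays. Nor is it stated whether replicates are separate cultures, so the spread behind every p-value may be technical.

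The food of a fly larva sets its growth, its reserves and the enzymes with which it handles sugars, fats, proteins and plant or microbial toxins, and part of that setting persists in the adult. Insect detoxification rests on cytochrome P450 enzymes, glutathione S-transferases and sugar-transferring enzymes, while the fat body stores nutrients and also secretes antimicrobial peptides. In RNA of whole flies, fewer cells of a type and less RNA per cell cannot be told apart.

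Each value below is the deposited normalized expression value of a probe set, taken as log2, so that a difference of 1 is a 2-fold change. The base of the logarithm is not stated, and with natural logarithms every difference would be 1.44 times larger, with p-values unmoved. Differences are poor-raised minus rich-raised and carry the standard error (SE) of a limma fit to all 30 arrays. A probe set was called where its p-value, adjusted by Benjamini-Hochberg over all 15309 probe sets, was under 0.05.

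One of the 6 arrays stood apart. Replicate 2 of the rich-raised males carried ovary and yolk transcripts, although the flies are labelled as males: the 36 measured genes of an ovary and yolk list averaged 2.88 there, against 0.565 and 0.652 on the other rich-raised arrays and 0.560 to 0.651 on the poor-raised arrays. The yolk protein gene Yp1 read 6.57, Yp2 9.05 and Yp3 7.0 on that array, and the vitelline membrane gene Vm34Ca read 7.89. Testis genes averaged 3.31 there against 3.49 to 3.74 on the other 5 arrays, and accessory gland and seminal fluid genes 4.73 against 4.74 to 5.01, so male markers were present on every array. Only 1 array among the other 24, an F1 array of another pair, had an ovary mean of this size (2.75). Results are therefore given with all 6 arrays and without replicate 2 of the rich-raised males, and the part of ovary RNA in any single result was not tested beyond that.

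With all arrays, 11 of 15309 probe sets were called (0.0719 percent), 3 higher and 8 lower in poor-raised males. Without the array with ovary transcripts 5 were called (0.0327 percent), all of them among the 11: CG34291 was higher, and CG16898, AOX1, CG4757 and Drs were lower. At an unadjusted p under 0.05 there were 1351 probe sets with all arrays and 877 without it. The ovary array weighed most on large falls, since 107 probe sets differed by at least 2-fold downward with it and 12 without it, against 13 and 15 upward. Leaving out each of the 6 arrays in turn gave between 3 and 23 calls. The count was 23 without replicate 1 of the rich-raised males, 8 without their replicate 3, and 3, 9 and 4 without replicates 1, 2 and 3 of the poor-raised males.

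**Figure D1:**
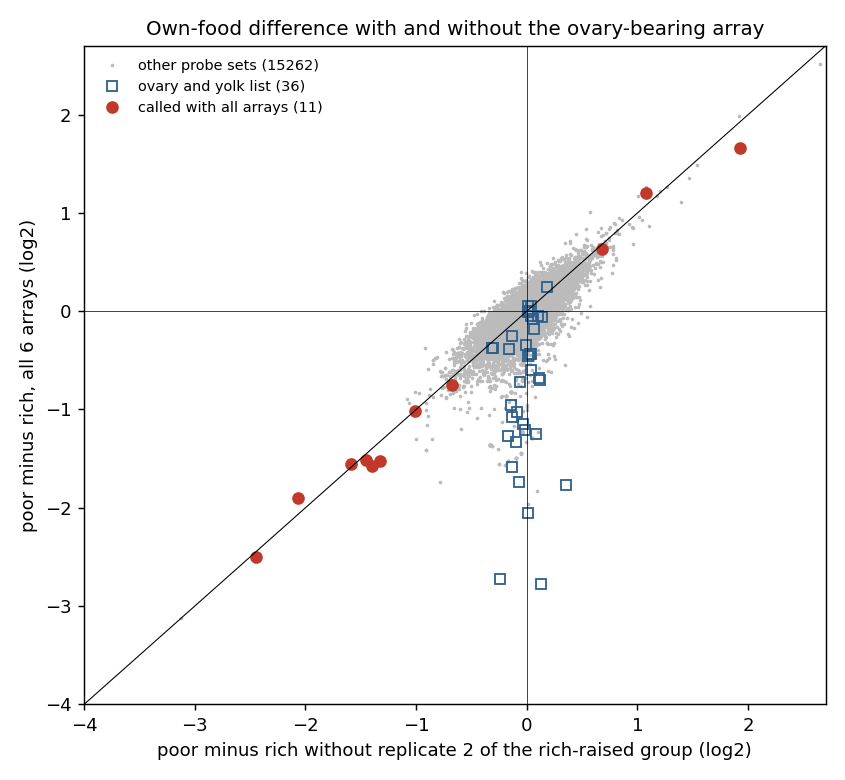
Difference between poor-raised and rich-raised males (log2) for every probe set, with all 6 arrays on the vertical axis and without replicate 2 of the rich-raised males on the horizontal axis; the diagonal marks equal values. Ovary and yolk genes (squares) fall to as low as -2.78 with the array and gather near 0 without it, while the 11 called genes (filled circles) lie close to the diagonal.

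The gene that fell furthest among those called was CG16898, a member of the ecdysteroid kinase-like family, named for an enzyme that phosphorylates the moulting hormone in the silkworm. It read 5.02, 5.19 and 5.05 in rich-raised males and 2.85, 2.31 and 2.60 in poor-raised males. The groups lay far apart, and the array with ovary transcripts sat with the other rich-raised arrays. The difference was -2.50 ± 0.272 (SE, limma adjusted p = 1.81e-05), and -2.45 without that array (adjusted p = 0.000292). Of 47 measured genes of the family, 1 was called lower and 0 higher, and the median difference was 0.00333, against -0.00667 over all named genes. CG31104 of the same family pointed the other way, with 2.82, 2.78 and 2.73 in rich-raised and 3.46, 3.40 and 3.70 in poor-raised males (difference 0.74, adjusted p = 0.378).

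AOX1 encodes an aldehyde oxidase, an enzyme that oxidises aldehydes and related compounds. Its values were 4.99, 5.40 and 5.46 in rich-raised and 3.72, 3.70 and 3.90 in poor-raised males, again without overlap. It fell by 1.51 ± 0.172 (SE, limma adjusted p = 2.41e-05) and was also called without the array with ovary transcripts (-1.45, adjusted p = 0.000488). AOX1 neighbours AOX2, AOX3 and AOX4 in the RefSeq Release 6 annotation, yet AOX2 and AOX3 were both dim and differed by only 0.13 and 0.27 upward, neither of them called (adjusted p = 0.797 and 0.626). The related gene rosy (ry), which encodes xanthine dehydrogenase, differed by 0.35 upward (adjusted p = 0.542), so that AOX1 was the 1 gene of 5 in its list with a negative difference.

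Among the detoxification families, Cyp6d2, which encodes a cytochrome P450, fell by 1.58 ± 0.285 (SE, limma adjusted p = 0.0203). Rich-raised males read 2.51, 3.20 and 2.80, and poor-raised males 1.51, 1.01 and 1.25. The highest of these values came from the array with ovary transcripts, and without it the difference was -1.40 (adjusted p = 0.153), so the call was lost. Over 82 measured P450 genes the median difference was -0.0167 and 1 was called. Cyp6g1, the P450 known for insecticide resistance, read 6.49, 7.15 and 6.93 against 6.61, 5.14 and 6.18, with overlapping groups (adjusted p = 0.401), and its difference went from -0.88 to -0.46 without replicate 2 of the poor-raised males.

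The UDP-glycosyltransferase gene Ugt37A3 had the most negative difference of all probe sets, -3.12 ± 0.793 (SE), with 4.12, 4.10 and 4.07 in rich-raised and 1.22, 0.43 and 1.27 in poor-raised males. It was not called in the fit to all arrays (limma adjusted p = 0.193), and its value without the array with ovary transcripts was also -3.12. Its spread over the other groups was wide, from 0.73 to 4.92 on the 12 other rich-raised arrays. In a fit to the 6 arrays alone, where that spread does not enter, it was 1 of 2 genes called, beside CG16898 (adjusted p = 0.00369). In the fit to all arrays 0 of 35 measured UDP-glycosyltransferase genes were called. Of these, 21 had a positive difference, and the median was 0.0233 (0.015 without the array with ovary transcripts). Of the 35 glutathione S-transferase genes 0 were called and 21 had a positive difference. Their median was 0.0433 (0.045 without that array), so the 2 genes given next point against the list's median. GstE1 read 5.67, 5.64 and 5.18 against 4.72, 4.77 and 4.77 (difference -0.74, adjusted p = 0.266), and GstD5 2.71, 3.0 and 1.52 against 0.97, 1.03 and 1.34 (difference -1.30, adjusted p = 0.359). In both genes the groups did not overlap. In the glutathione S-transferase list 3 genes (8.57 percent) lay entirely lower and 1 (2.86 percent) entirely higher in poor-raised males. Over all probe sets these shares were 5.55 and 4.94 percent.

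Drs encodes drosomycin, an antifungal peptide that the fat body secretes under control of the Toll pathway. It read 5.21, 4.60 and 4.23 in rich-raised and 2.98, 3.10 and 3.31 in poor-raised males. The fall was 1.55 ± 0.245 (SE, limma adjusted p = 0.00561), and -1.59 without the array with ovary transcripts (adjusted p = 0.0188). The call was lost without replicate 1 of the poor-raised males, at a difference of -1.48 and an adjusted p of 0.0521. All 3 rich-raised arrays of this ancestry lay above the 12 other rich-raised arrays of the study, which ran from 2.66 through a median of 3.58 to 3.99, while the poor-raised males lay within the 2.65 to 3.65 of the 12 other poor-raised arrays. Of the 38 antimicrobial and immune genes Drs was the 1 called, and the list's median difference was -0.00833. Listericin, which encodes an antibacterial protein, read 3.82, 4.57 and 2.65 against 2.27, 2.14 and 2.73 with overlap (adjusted p = 0.303). Its difference was -1.30, and -0.85 without the array with ovary transcripts. BomS6, one of the Bomanin peptide genes downstream of Toll, differed by 0.66 in the opposite direction (adjusted p = 0.400).

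CG4757 showed the same arrangement. It read 3.34, 2.17 and 2.0 in rich-raised and 0.63, 1.00 and 0.19 in poor-raised males, a fall of 1.90 ± 0.320 (SE, limma adjusted p = 0.0115) and a difference of -2.06 without the array with ovary transcripts (adjusted p = 0.0188). On the 12 other rich-raised arrays it ran from 0.55 through a median of 0.955 to 1.95, below all 3 rich-raised arrays here. On the 12 other poor-raised arrays it ran from 0.22 to 1.21, a range that nearly covers the poor-raised arrays here. The call was lost without replicate 1 (adjusted p = 0.0539) or replicate 3 (adjusted p = 0.0728) of the poor-raised males, at differences of -1.91 and -1.69.

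Another 3 genes were called lower with all arrays but not without the array with ovary transcripts. Arc1, whose protein forms virus-like capsids and carries RNA between cells in the fly nervous system, read 6.01, 7.18 and 7.16 in rich-raised and 5.32, 5.27 and 5.19 in poor-raised males (difference -1.52 ± 0.291 (SE), limma adjusted p = 0.0317; without that array -1.32, adjusted p = 0.195). The rich-raised arrays were spread over more than 1 unit, and the poor-raised arrays were tightly grouped below them. Alas, which encodes the enzyme of the first step of heme synthesis, read 6.51, 6.67 and 6.79 against 5.68, 5.57 and 5.67, and its difference of -1.02 ± 0.179 (SE, adjusted p = 0.0169) was almost the same without that array (-1.01, adjusted p = 0.0615). Hph, which encodes the prolyl hydroxylase that marks the hypoxia-inducible factor for breakdown when oxygen is plentiful, read 1.69, 1.80 and 1.46 against 0.89, 0.82 and 0.99 (-0.75 ± 0.141 (SE), adjusted p = 0.0304; without that array -0.68, adjusted p = 0.178). In all 3 genes the groups did not overlap.

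The genes called higher in poor-raised males were CG34291, CG16704 and MtnA. CG34291 read 3.02, 3.50 and 2.38 in rich-raised and 4.70, 4.24 and 4.95 in poor-raised males, a rise of 1.66 ± 0.326 (SE, limma adjusted p = 0.0400) and of 1.93 without the array with ovary transcripts (adjusted p = 0.0261). CG16704, which encodes a Kunitz-type protease inhibitor-like protein, read 4.88, 4.29 and 4.49 against 5.90, 5.23 and 6.15, a rise of 1.21 ± 0.229 (SE, adjusted p = 0.0317) that was not called without that array (1.07, adjusted p = 0.195). Its relative CG16713 differed by 1.36, with 3.70, 3.27 and 2.19 against 4.58, 4.01 and 4.64, and was not called (adjusted p = 0.0844). MtnA encodes a metallothionein, a small protein that binds copper and other metals. It read 7.83, 7.89 and 7.68 against 8.30, 8.24 and 8.77, a rise of 0.64 ± 0.127 (SE, adjusted p = 0.0464; without that array 0.68, adjusted p = 0.0948). Of the other metallothionein genes, MtnC read 2.53, 2.40 and 2.52 against 2.59, 2.95 and 3.35 (difference 0.48, adjusted p = 0.513), with a difference of 0.29 without replicate 3 of the poor-raised males. MtnB and MtnF differed by 0.12 and 0.07, and both signs turned when single arrays were left out.

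**Figure D2:**
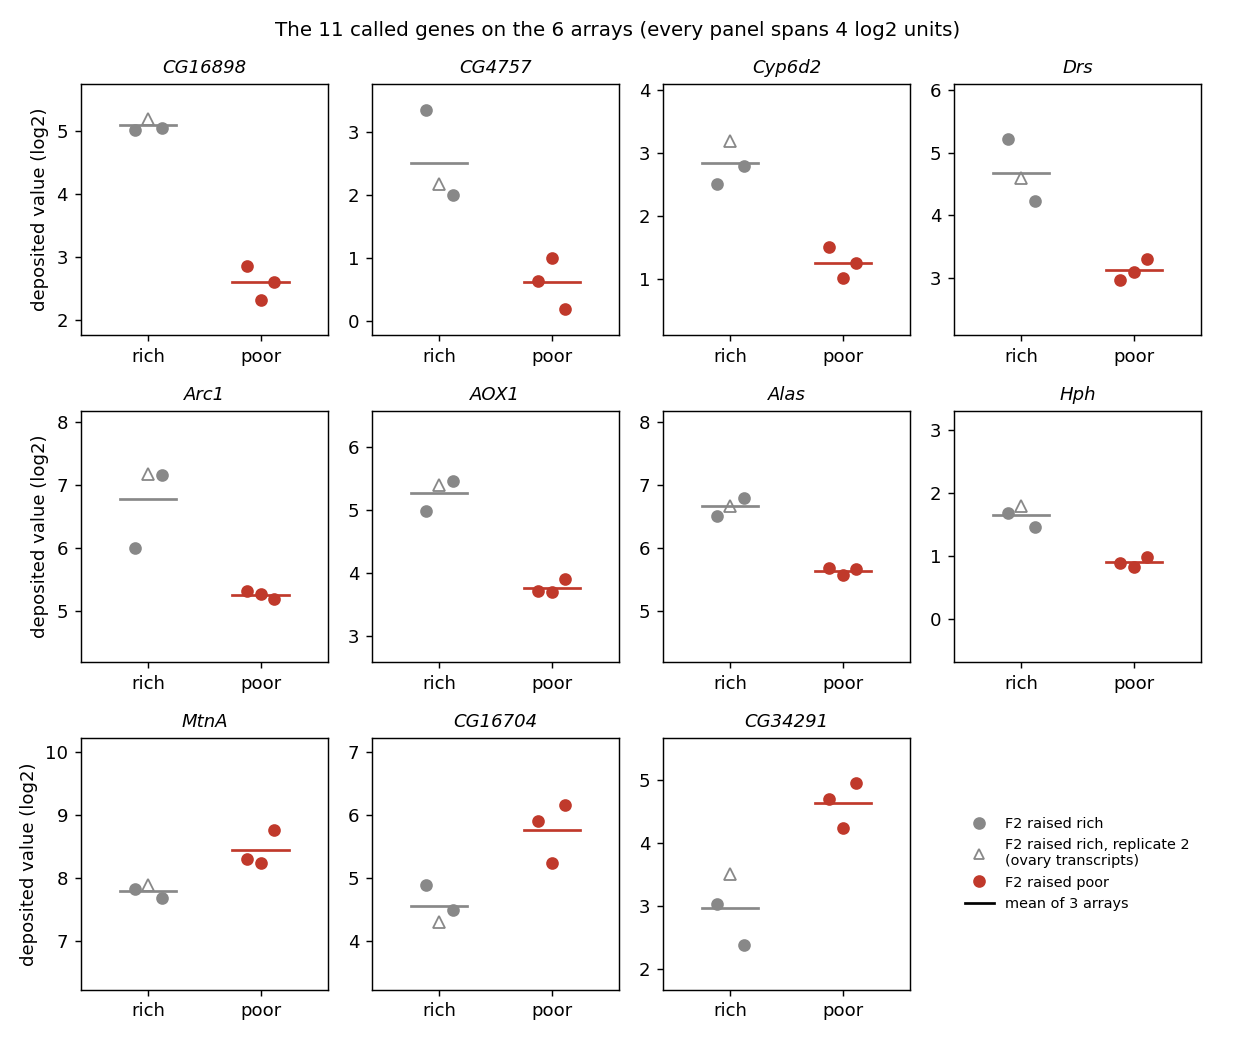
Deposited values (log2) of the 11 called genes on the 3 rich-raised arrays (grey, with the ovary-bearing replicate 2 as an open triangle) and the 3 poor-raised arrays (red), with horizontal bars at the group means and every panel spanning the same 4 units. In each of the 11 genes the groups do not overlap, and CG16898 shows the widest gap among them.

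Each of the 11 genes was measured by 1 probe set, and in all 11 the poor-raised and rich-raised arrays did not overlap. Over all probe sets, 4.94 percent had poor-raised arrays entirely above and 5.55 percent entirely below the rich-raised arrays. CG16898 and AOX1 were called in all 6 fits that left out 1 array, Drs in 5 and CG4757 in 4. CG34291 and CG16704 were called in 2 of these fits, and Cyp6d2, Arc1, Alas, Hph and MtnA in 1. The differences kept their sign in every one of these fits. For the genes that lost calls, the highest adjusted p over the 6 fits ran from 0.0521 for Drs to 0.255 for MtnA.

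Among genes chosen for groups that did not overlap, the next in order of p were not called. Upward, Sodh1, which encodes a sorbitol dehydrogenase that turns sorbitol into fructose, read 7.39, 6.75 and 6.82 against 8.32, 7.49 and 8.0 (difference 0.95, limma adjusted p = 0.0743). CG3699 differed by 0.71, CG14153 by 0.81, CG43114 by 1.49, and Cda4, named for chitin deacetylase, by 0.96, with adjusted p between 0.0965 and 0.131. The zinc-finger gene ranshi differed by 0.58 at values under 1 on every array, close to the floor of the measurement. Downward, CG9281 differed by -0.68 and feo by -0.99, both at an adjusted p of 0.0743. The highest CG9281 value, 3.81, was on the array with ovary transcripts, and its difference was -0.55 without that array (adjusted p = 0.376). The gene feo encodes a microtubule-bundling protein of cell division. It read 1.22, 2.48 and 1.42 against 0.86, 0.64 and 0.64, with its highest value on the array with ovary transcripts and a difference of -0.61 without that array (adjusted p = 0.345).

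The same own-food contrast can be read in the 4 other pairs, which use none of these 6 arrays, although all 30 arrays were normalized and fitted together. Over the mean of those 4 pairs 229 probe sets were called (1.5 percent), 96 higher (0.627 percent) and 133 lower (0.869 percent). A mean over 4 pairs has a smaller SE than 1 pair, for CG16898 0.136 against 0.272. The 229 calls there and the 11 here are therefore counts of unlike precision, and their sizes do not compare the pairs. Of the 11 genes called here, 9 (81.8 percent) were called there too, all 11 had the same sign, and these 9 make up 3.93 percent of the 229. CG16898, AOX1 and Cyp6d2 were called in each of the 5 pairs taken alone. Of the 229, 199 (86.9 percent) had the same sign in F2 males of poor-raised grandparents, and 195 (85.2 percent) without the array with ovary transcripts, against 52.4 and 53.8 percent of all probe sets. The differences were smaller here: the 96 had a median of 0.357 here and 0.467 there, and the 133 a median of -0.300 here and -0.520 there. Leaving out replicates 1 and 3 of F0-Rich_F1-Rich, both in 1 of the other pairs, took the 229 to 145. The 229 were chosen by their size in the other pairs, which by itself makes them larger there.

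**Figure D3:**
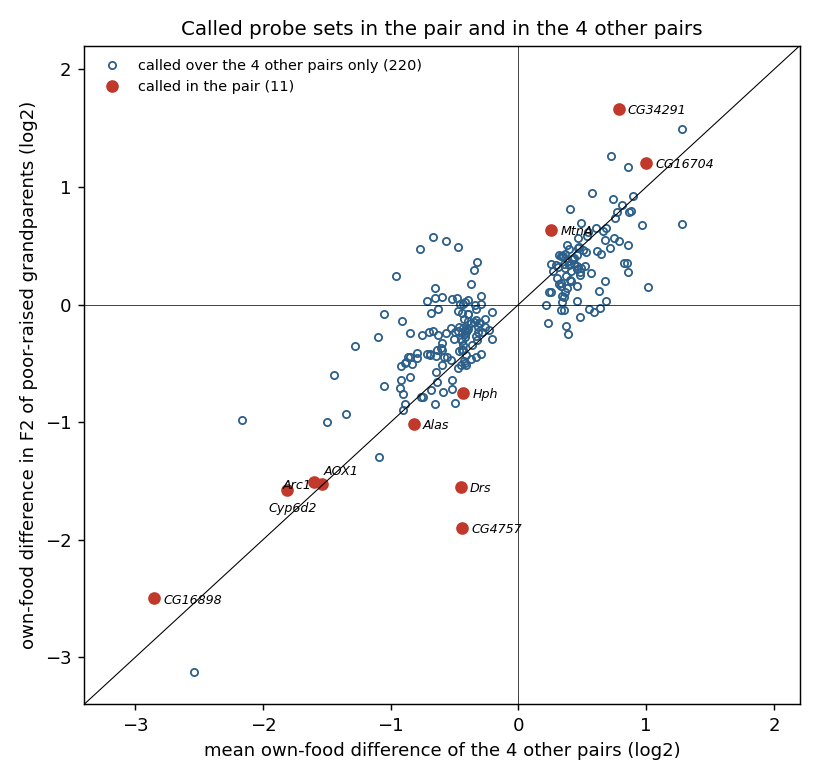
Own-food difference (log2) in F2 males of poor-raised grandparents against the mean own-food difference of the 4 other pairs, for the 220 probe sets called only in the latter (open circles) and the 11 called here (filled, named); the diagonal marks equal values. Most points lie in the 2 quadrants of equal sign, and CG4757 and Drs lie well below the diagonal.

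The 2 genes not called over the other pairs were CG4757 and Drs. CG4757 differed by -0.44 on average over the 4 other pairs (limma adjusted p = 0.254) and by -0.22 in F2 males of rich-raised grandparents, against -1.90 here. Drs differed by -0.45 on average (adjusted p = 0.0645) and by -0.40 in F2 males of rich-raised grandparents, against -1.55 here. A test of the pair against the mean of the other 4 called neither, with a difference of -1.45 for CG4757 (unadjusted p = 0.000398, adjusted p = 0.429) and -1.10 for Drs (unadjusted p = 0.000463, adjusted p = 0.429). CG16898, by contrast, differed by -2.52 in F2 males of rich-raised grandparents and by -2.85 on average over the 4 pairs, so that its fall here was of ordinary size (test of the difference, adjusted p = 0.886).

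Across all probe sets, neither test of a difference between pairs made a call. The limma test of the pair against the mean of the 4 other pairs called 0 of 15309 (0.0 percent), with 1107 at an unadjusted p under 0.05 and a smallest adjusted p of 0.348, that of feo. The interaction with grandparental food, which subtracts the own-food difference of F2 males of rich-raised grandparents, also called 0 (0.0 percent), with 1169 at an unadjusted p under 0.05 and a smallest adjusted p of 0.299. Without the array with ovary transcripts both tests again called 0, with 755 and 1039 at an unadjusted p under 0.05. Without replicate 1 of the rich-raised males the first test called feo, without their replicate 3 it called ced-6, and without replicate 3 of the poor-raised males it called 1 probe set that carries no gene name. Without that last array the interaction called the same unnamed probe set and Gos28. The genes ced-6 and Gos28 are named here because of these counts, after their values were seen.

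Some genes differed from F2 males of rich-raised grandparents, or from the mean of the other pairs, at a small unadjusted p, but none of these differences was called. Hph differed by -0.75 here and by 0.09 in F2 males of rich-raised grandparents (interaction -0.84, unadjusted p = 0.000271, limma adjusted p = 0.308), while F0 males and both kinds of F1 males gave -0.53, -0.84 and -0.45. CG34291 differed by 1.66 here and by 0.12 in F2 males of rich-raised grandparents (interaction adjusted p = 0.422), while F0 males, F1 males of rich-raised parents and F1 males of poor-raised parents gave 1.25, 1.06 and 0.71. Both genes were called over the mean of the 4 other pairs with the same sign as here, at -0.43 and 0.78. Ugt35C1, a UDP-glycosyltransferase gene, differed by 0.36 here and by -0.33 over the 4 other pairs, where it was called lower (test of the difference, unadjusted p = 0.000105, adjusted p = 0.429). It was dim, with overlapping groups here: 0.95, 0.81 and 0.55 in rich-raised and 1.30, 1.21 and 0.88 in poor-raised males (limma adjusted p = 0.461). The eye gene rdgA, whose diacylglycerol kinase serves phototransduction, read 4.01, 3.85 and 3.91 in rich-raised and 4.63, 4.78 and 4.42 in poor-raised males. Its difference was 0.69 here and 0.04 over the other pairs (test of the difference, unadjusted p = 0.00168, adjusted p = 0.561). Of the 2 probe sets of rdgA only the one with the higher mean is given. In the list of 24 measured eye and phototransduction genes 0 were called, 14 differences were positive and 10 negative, and the median was 0.075. The channel gene trpl of that list differed by -0.47 with overlapping groups.

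**Figure D4:**
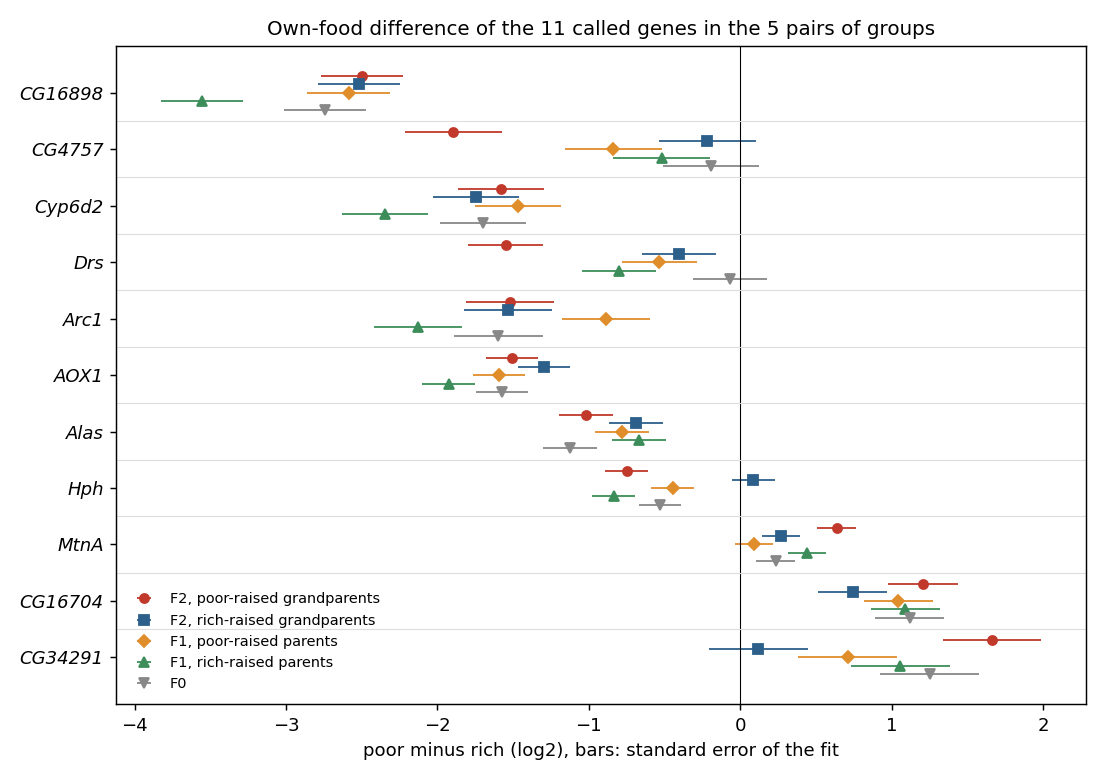
Own-food difference (poor-raised minus rich-raised, log2) of the 11 called genes in each of the 5 pairs of groups, with bars of 1 standard error of the fit. CG16898, AOX1 and Cyp6d2 are low in every pair, whereas CG4757 and Drs reach -1.90 and -1.55 in F2 males of poor-raised grandparents and stay between -0.84 and -0.07 in the other pairs.

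Energy metabolism was described with lists of known genes. Of 77 measured subunits of oxidative phosphorylation, the chain of complexes by which mitochondria make ATP, 60 had a positive difference and 17 a negative one, with a median of 0.193 (0.135 without the array with ovary transcripts) against -0.00667 over all named genes. None of the 77 was called, the smallest adjusted p being 0.340 for ND-B22, a subunit of complex I. ND-B22 read 5.54, 5.51 and 5.96 in rich-raised and 6.21, 6.15 and 6.14 in poor-raised males. In 22 subunits (28.6 percent) the poor-raised arrays lay entirely above the rich-raised ones, and in 1 entirely below, against 4.94 and 5.55 percent of all probe sets. The list's mean level was 4.16, 4.09 and 4.27 on the rich-raised arrays and 4.30, 4.27 and 4.40 on the poor-raised arrays, so the groups met at their edges. Over the 4 other pairs the median was 0.0967, and 3 subunits (3.9 percent) were called higher there, against 0.627 percent of all probe sets. Flight and leg muscle genes, a tissue rich in mitochondria, had a median of 0.153 with all arrays and 0.05 without that array, and their part in the values of the subunits was not tested.

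Of 30 measured genes of glycolysis and carbohydrate metabolism, 21 had a positive difference and 0 were called, with a median of 0.152 (0.118 without the array with ovary transcripts). Beside Sodh1, the gluconeogenic enzyme gene fbp read 2.21, 2.44 and 1.24 against 2.99, 2.54 and 2.95 (difference 0.86, limma adjusted p = 0.391), and its difference was 0.50 without replicate 3 of the rich-raised males. The hexokinase gene Hex-C read 2.61, 1.95 and 2.07 against 2.97, 2.71 and 2.81 (difference 0.62, adjusted p = 0.428). Of 30 digestive carbohydrase and lipase genes 0 were called. The maltase gene Mal-A8 differed by 1.01 here and by -0.65 over the 4 other pairs (test of the difference, unadjusted p = 0.00226, adjusted p = 0.572), and its value here was 0.57 without the array with ovary transcripts. Those 4 pairs were uneven for Mal-A8, from -1.72 in F1 males of rich-raised parents to 0.11 in F0 males. The gut lipase gene mag read 5.85, 5.10 and 5.28 against 6.15, 5.98 and 6.11 (difference 0.67, adjusted p = 0.437). Of 26 digestive protease genes 0 were called, and the median difference was 0.0383. Jon25Biii, a digestive serine protease gene, differed by 0.67 here with overlapping groups (adjusted p = 0.430). Over the other pairs it differed by 0.97 and was called. Jon66Cii of the same list differed by -0.69 without overlap (adjusted p = 0.475). In the list 2 genes (7.69 percent) lay entirely lower in poor-raised males and 0 entirely higher, against 5.55 and 4.94 percent of all probe sets.

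In lipid transport and nutrient sensing 0 genes were called. Apoltp, which encodes the lipid transfer particle of the blood, read 1.86, 2.30 and 1.85 against 1.72, 1.20 and 1.17 (difference -0.64, limma adjusted p = 0.329) and was called lower over the 4 other pairs at -0.92. Lsd-1, a lipid droplet coat protein gene, read 3.55, 3.21 and 3.70 against 4.20, 3.99 and 3.79. In the insulin and TOR list, 21 of 26 measured genes had a negative difference, 18 without the array with ovary transcripts, with a median of -0.112 and -0.0667. Of the genes in that list, rictor, a subunit of TOR complex 2, differed by -0.44 and the sugar-sensing transcription factor gene Mondo by -0.39, whereas the autophagy gene Atg8a differed by 0.42 (adjusted p = 0.461, 0.487 and 0.517). The highest rictor value, 1.45, was on the array with ovary transcripts, and without it the difference was -0.27. Without replicate 2 of the poor-raised males Mondo differed by -0.21 and Atg8a by 0.24.

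Circadian clock genes stood lowest among the lists once the ovary list is set aside. Of 13 measured, 11 had a negative difference both with and without the array with ovary transcripts, the median was -0.283 (-0.278 without it), and 0 were called. In 5 genes (38.5 percent) the poor-raised arrays lay entirely below the rich-raised ones, against 5.55 percent of all probe sets. The list averaged 1.94, 2.0 and 1.94 in rich-raised and 1.73, 1.57 and 1.72 in poor-raised males. Over the 4 other pairs the list's median was 0.0658, with 2 genes called lower (15.4 percent, against 0.869 percent of all probe sets). The repressor gene cwo read 3.26, 3.16 and 3.20 against 2.75, 2.77 and 2.60 (difference -0.50, limma adjusted p = 0.359), and vri, a second repressor of the clock loop, 2.44, 1.90 and 2.06 against 1.45, 1.44 and 1.53 (difference -0.66, adjusted p = 0.396). The activator gene cyc read 0.98, 1.52 and 0.95 against 0.61, 0.55 and 0.45 (difference -0.61, adjusted p = 0.347), and its highest value came from the array with ovary transcripts. Without that array cyc differed by -0.43 (adjusted p = 0.823). The difference of cyc from the 4 other pairs was -0.75 (unadjusted p = 0.00111, adjusted p = 0.521), and -0.56 without that array (unadjusted p = 0.0119, adjusted p = 0.861).

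**Figure D5:**
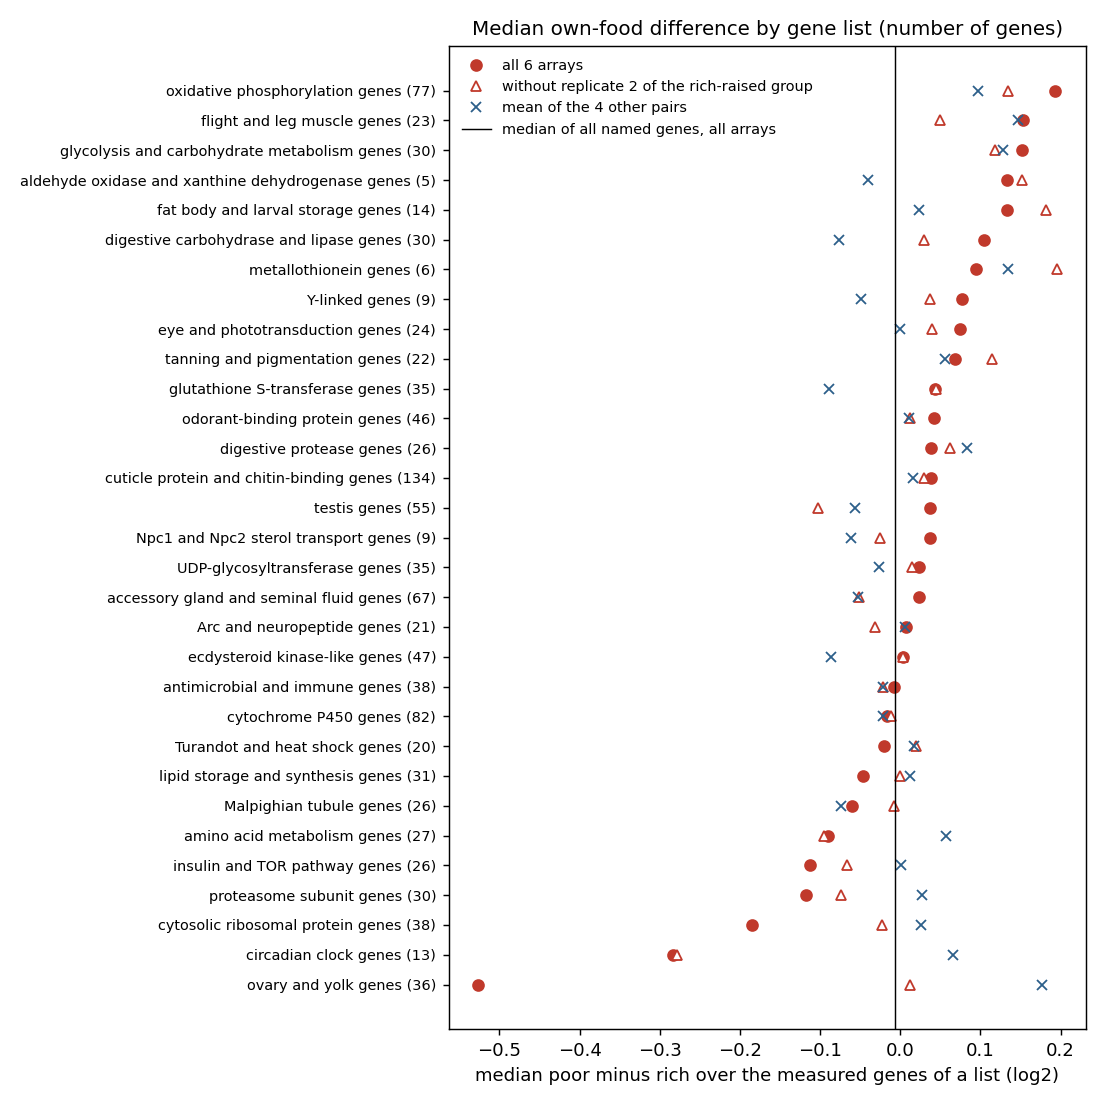
Median difference (poor-raised minus rich-raised, log2) over the measured genes of each of 31 lists, with list sizes in brackets, for all 6 arrays (filled circles), without replicate 2 of the rich-raised males (open triangles) and for the mean of the 4 other pairs (crosses). The vertical line is the median of all named genes (-0.00667); oxidative phosphorylation lies at 0.193, clock genes at -0.283, and the ovary list moves from -0.527 to 0.0125 when the array is left out.

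Cuticle and chitin-binding genes build the exoskeleton, which adults go on hardening after emergence. Of 134 measured, 80 had a positive difference and 0 were called, and the median was 0.0383 (0.0292 without the array with ovary transcripts). In 20 of them (14.9 percent) the poor-raised arrays lay entirely above the rich-raised ones, against 4.94 percent of all probe sets, and in 2 entirely below. Gasp, a chitin-binding protein gene, read 3.62, 3.90 and 4.14 against 5.10, 4.97 and 5.10 (difference 1.17, limma adjusted p = 0.384). The adult cuticle gene Acp65Aa read 0.06, 0.33 and 0.45 against 0.95, 0.72 and 0.92 (difference 0.58, adjusted p = 0.430). Both were called higher over the 4 other pairs, at 0.86 and 0.54, as were 11 genes of the list in all (8.21 percent, against 0.627 percent of all probe sets). The pairs were uneven for Gasp, at 1.74 in F1 males of rich-raised parents and 0.21 to 0.91 in the rest. For Acp65Aa the 4 pairs ran from 0.46 to 0.64. The F1 pair of rich-raised parents holds replicates 1 and 3 of F0-Rich_F1-Rich. Without them the calls over the other pairs fell from 229 to 145 among all probe sets. The list's own calls were not counted in that fit, so the part of these arrays in them was not tested.

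Several lists moved with the array that carries ovary transcripts. Cytosolic ribosomal protein genes averaged 4.27 on it, above the 3.80 to 3.99 of the other 5 arrays and above the highest of the 24 arrays of the other pairs (4.11). Their median difference was -0.185 with that array and -0.0225 without it. Proteasome subunit genes averaged 3.32 on it against 2.95 to 3.11 on the other 5, and their median went from -0.118 to -0.0742. Testis genes went the other way: 31 of 55 had a positive difference with the array and 16 without it, and the median turned from 0.0367 to -0.103. Accessory gland and seminal fluid genes did likewise, from 34 of 67 positive to 22. In the ovary and yolk list 33 of 36 differences were negative with the array and 16 without it, and 0 were called either way.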

How the data were processed

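RNA of adult virgin males was hybridised to Affymetrix Drosophila Gene 1.0 arrays, and samples were grouped by their group label. The authors deposited 1 normalized value per probe set and array, taken here as log2. Per the submitters' processing notes GCRMA was used, which removes background estimated from the probes' bases before arrays are brought to a common scale. Its version, the probe-set definition and the genome build were not given in the sources used here. Medians over probe sets lay between 0.82 and 0.94 on every array, and arrays correlated with others of their group at a mean r of 0.951 to 0.988. Precision is limited by having 3 arrays in a group.

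Group means of all 10 groups were fitted over the 30 arrays by lmFit and eBayes (limma 3.58.1, R 4.3.3), without covariates and keeping dim probe sets, which gives 1 shared spread per probe set. The p-values were adjusted by Benjamini-Hochberg over 15309 probe sets. The fit was also run on simulated data with known changes. Its noise was normal and independent between probe sets, and no array carried ovary transcripts. That run therefore does not speak to the effect of such an array. Of the probe sets, 13441 had 1 gene symbol in the platform annotation, 555 several and 1313 none, and those with several or none were tested but not named. Of the 13441, 13064 matched a RefSeq table of Release 6, and 0 symbols needed updating. For the 37 genes with several probe sets, the one with the highest mean stands for the gene. In the table, 553 probe sets shared all their values with another. Columns not mapped to a sample numbered 0. No genome or sequence was used, and gene positions entered only the remark that AOX1 neighbours AOX2, AOX3 and AOX4.

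The genes named are those called with all arrays or without the array with ovary transcripts, up to 10 per direction with the smallest p whose groups did not overlap, up to 3 further members of each of 31 gene lists by p, the ovary markers, and any gene called in the 2 tests of a difference between pairs. The comparison, the lists and the rule were chosen with earlier results of these data known, so no list is independent evidence. Lists are described by counts and medians, with no set test.

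Same-numbered replicates of the 6 arrays did not deviate together (correlations of deviations from the group means of -0.0959 to -0.0712), so the numbers were not taken to pair the samples. That check includes the array with ovary transcripts and cannot decide whether batches were shared. The alternatives were leaving out each array, both arrays with ovary transcripts, or replicates 1 and 3 of F0-Rich_F1-Rich, fitting the 6 or the 12 F2 arrays alone, a replicate block, quantile normalization, median centring, a mean of at least 2, array weights, robust and trended variances, and distinct value profiles.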

Additional observations from a re-analysis of the deposited data

How the results depend on the processing

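The 11 calls became 3 to 23 when single arrays were left out, 6 without both arrays with ovary transcripts, 2 with the 6 arrays alone, 5 with the 12 F2 arrays and 6 with array weights; the cause was not tested, beyond fewer arrays in the first fits. With the replicate number as a block 7 genes were called, 0 higher and 7 lower, although the labels do not say that the numbers pair the samples. CG16898 was called under all 17 alternatives, AOX1 under 16 (not with the 6 arrays alone, adjusted p = 0.0574) and Drs under 15. The interaction with grandparental food gave 0 to 2 calls and the test against the 4 other pairs 0 to 1 when single arrays were left out, and both gave 0 otherwise. The 229 calls over the 4 other pairs became 145 without replicates 1 and 3 of F0-Rich_F1-Rich. No called gene changed sign under any alternative. Signs turned for 6 uncalled genes. Over fits without 1 array MtnB ran from -0.0683 (without poor-raised replicate 2) to 0.292 and was -0.035 without rich-raised replicate 1. MtnF ran from -0.05 to 0.155, Yp1 from -3.15 to 0.01, Yp2 from -4.33 to 0.132, Yp3 from -2.84 to 0.352 and yellow-g from -0.935 to 0.05, each with the turned value both without the 1 array and without both arrays with ovary transcripts. Of 102 uncalled named genes, 9 were called under some alternative. Of 523 list medians under alternatives, 5 moved by over 1 SD. A mean filter of at least 2 took the cuticle median to 0.570, since it keeps only the brighter genes. Array signals carry no count depth, and probe sets near 0 have little room to fall.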

Other observations

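In the accessory gland and seminal fluid list of 67 genes, the groups did not overlap in 3 genes upward and 3 downward (4.48 percent each). Over all probe sets these shares were 4.94 and 5.55 percent, so the list held no excess. Of its genes 0 were called. The odorant-binding protein gene Obp51a, a member of that list, read 8.42, 8.29 and 8.17 in rich-raised and 8.52, 8.84 and 8.86 in poor-raised males (difference 0.45, limma adjusted p = 0.368), and it was called higher over the 4 other pairs at 0.53. Gld, which encodes a glucose dehydrogenase of the male reproductive tract and the cuticle, read 2.60, 3.21 and 2.81 against 2.12, 1.46 and 2.53 (difference -0.84, adjusted p = 0.212, and -0.55 without replicate 2 of the poor-raised males) and was called lower over the other pairs at -0.49.

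The stress peptide gene TotC was high on 1 poor-raised array only, reading 0.26, 0.21 and 0.10 in rich-raised and 3.19, 0.70 and 0.46 in poor-raised males (difference 1.26, adjusted p = 0.529), and the difference was 0.39 without that array. The asparagine synthetase gene AsnS, which responds to amino acid shortage in many animals, read 2.21, 2.23 and 2.05 against 1.53, 1.25 and 1.61 (difference -0.70, adjusted p = 0.494). Larval storage protein gene Lsp2 read 6.06, 5.40 and 6.83 against 7.34, 6.75 and 6.57 with overlapping groups (difference 0.79, adjusted p = 0.554), and its lowest value came from the array with ovary transcripts, without which the difference was 0.44 (adjusted p = 0.962).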
